A study of Homo sapiens with 42 samples.

Results

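Expression of 10 genes of glucose and lactate transport was followed in 786-O cells, a human clear cell renal cell carcinoma (ccRCC) line that lacks VHL, so that its HIF-2α is stable, and that has no functional HIF-1α. The genes were chosen by symbol, with earlier results of these data known. They are SLC2A1, SLC2A3, SLC2A6, SLC2A8, SLC2A10 and SLC2A12 of the glucose transporter family, SLC16A1, SLC16A3 and SLC16A7 of the monocarboxylate transporter family, and BSG. All 10 were found among the 60609 genes counted, and all 10 passed the filter on low counts in both batches of poly-A RNA-seq. The first batch held 27 libraries, 3 each of 9 lines, and the second 15 libraries, 3 each of 5 lines. WT cells were unedited. The HIF-1β KIN (knock-in) and HIF-2α KIN lines are each 1 clone, A21 and A31, in which every copy of the endogenous gene carries an N-terminal V5-Halo tag. The other lines kept the endogenous genes and carried a V5-Halo-tagged transgene driven by the L30 promoter, stably inserted and selected with puromycin. Within a batch no independently made lines of the same construct are named. Errors and p-values therefore measure the spread between libraries, not between such lines. In the first batch the transgenes were HIF-1α, its DNA-binding mutant R30E and its dimerization mutant HIF-1αDM (R170A and V191D), and HIF-2α, its DNA-binding mutant R27E and its dimerization mutant HIF-2αDM (R171A and V192D). One label of the HIF-2αDM libraries names HIF-1α in place of HIF-2α; title and description name HIF-2α, which was used. In the second batch they were HIF-1α, HIF-2α and 2 chimeras that exchange the structured N-terminal domains and the intrinsically disordered region (IDR). HIF-2α/1α joins residues 1 to 365 of HIF-2α to 364 to 826 of HIF-1α, and HIF-1α/2α joins 1 to 363 of HIF-1α to 366 to 870 of HIF-2α. All lines grew in medium with 4.5 g/L glucose.

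HIF-1α and HIF-2α each pair with HIF-1β and bind hypoxia response elements, whose core is ACGTG or GCGTG, and genes of glucose uptake and glycolysis are among their classical targets. SLC2A genes encode the GLUT proteins, which carry hexoses down their gradient: SLC2A1 (GLUT1) and SLC2A3 (GLUT3) at the cell surface in most tumours, SLC2A6 and SLC2A8 mostly on inner membranes, SLC2A10 and SLC2A12 in fewer tissues. SLC16A genes encode proton-coupled monocarboxylate transporters: SLC16A1 (MCT1) and SLC16A7 (MCT2) are often linked to lactate uptake and SLC16A3 (MCT4) to lactate release from glycolytic cells. BSG (basigin) is the partner that brings MCT1 and MCT4 to the plasma membrane. Loss of VHL makes ccRCC a strongly glycolytic tumour.

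First-batch libraries held 42377599 to 101186554 counts on genes and second-batch libraries 76366799 to 109642159. The first-batch library numbered 3 was the deepest of its line in all 9 lines, with 72801922 counts or more, and it differed more from libraries 1 and 2 than these did from each other in every line but HIF-1α R30E, where library 2 stood apart. The deviations of the libraries numbered 3 from their group means correlated at 0.429 on average. Results that depend on them are therefore also given without them. Levels are CPM, counts scaled to a common library size with TMM factors within a batch. The renal line markers PAX8, VIM, KRT8 and KRT18 were expressed in every line, and the leukocyte, endothelial and hepatocyte markers PTPRC, PECAM1 and ALB were at or near 0. HIF1A counts were 33.5 to 45.2 CPM in the first batch lines with a HIF-1α transgene against 3.60 in WT cells, and EPAS1 counts, the gene of HIF-2α, were 665 to 844 CPM in those with a HIF-2α transgene against 216. HIF1A was at 13.5 CPM in the first-batch HIF-2α line. In bulk libraries fewer expressing cells and less RNA per cell cannot be told apart. A gene was taken to rise or fall at an adjusted p of at most 0.01 (edgeR's quasi-likelihood test, Benjamini-Hochberg adjustment over all genes of the batch), and it was called when the change was also at least 2-fold. The error of a log2 change is its standard error (SE).

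Promoter windows of 8 of the 10 genes, from 250 bases before to 50 after an annotated start, were taken from RefSeq (GRCh38.p14); SLC2A3 and SLC16A1 had no entry. A window of each of 3 genes is printed because their transcripts moved most clearly and in different ways: SLC2A1 with functional HIF-2α, SLC16A3 with HIF-1α, and SLC16A7, which fell. Capitals mark matches to ACGTG or GCGTG on either strand, read 5′ to 3′ on the strand of the gene.
SLC2A1, chr1:42958819-42959118, minus strand: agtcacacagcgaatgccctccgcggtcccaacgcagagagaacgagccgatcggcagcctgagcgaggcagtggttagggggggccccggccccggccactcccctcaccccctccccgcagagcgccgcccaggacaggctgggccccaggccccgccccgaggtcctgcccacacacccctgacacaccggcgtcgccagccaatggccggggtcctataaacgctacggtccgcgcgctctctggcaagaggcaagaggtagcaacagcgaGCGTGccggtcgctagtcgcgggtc
SLC16A3, chr17:82228792-82229091, plus strand: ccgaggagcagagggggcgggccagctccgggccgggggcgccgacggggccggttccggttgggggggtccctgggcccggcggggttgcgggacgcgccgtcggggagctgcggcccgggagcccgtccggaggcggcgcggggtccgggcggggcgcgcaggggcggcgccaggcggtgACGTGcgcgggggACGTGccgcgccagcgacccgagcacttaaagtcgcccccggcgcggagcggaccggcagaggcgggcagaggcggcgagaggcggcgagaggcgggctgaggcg
SLC16A7, chr12:59595779-59596078, plus strand: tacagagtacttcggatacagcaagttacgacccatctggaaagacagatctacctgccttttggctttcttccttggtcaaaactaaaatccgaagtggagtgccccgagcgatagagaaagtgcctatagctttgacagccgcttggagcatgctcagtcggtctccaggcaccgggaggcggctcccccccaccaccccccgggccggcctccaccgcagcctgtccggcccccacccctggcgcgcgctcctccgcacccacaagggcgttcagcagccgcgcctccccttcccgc
The SLC2A1 window held 1 match, a GCGTG downstream of the start. SLC16A3 had 5 windows: the one printed is the only one with ACGTG, in 2 copies 68 and 55 bases upstream of its start, 2 of the others held no match, and the remaining ones held 3 and 1 matches to GCGTG. Neither SLC16A7 window held a match. Among the others, SLC2A6 had 3 matches and SLC2A10 had 1, SLC2A8 and SLC2A12 had none, and 1 of the 2 BSG windows had 6, of which 2 overlap on opposite strands. Of 35116 RefSeq windows of 300 bases, 48.4% held at least 1 match and 23.1% at least 2. A match describes the letters of this window only.

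Against WT cells of the same batch, SLC2A1 and SLC2A3 were the genes with the clearest rise in the HIF-2α lines, SLC16A3 and the barely expressed SLC2A12 rose in the HIF-1α lines of both batches, and SLC16A7 fell in the HIF-2α lines. In the second batch SLC2A1, SLC2A3 and SLC16A3 rose and SLC16A7 fell in all 4 transgene lines. There SLC16A3 changed by log2 0.28 with HIF-2α, and SLC16A7 by -0.92 with HIF-1α. Within the first batch 3 of the 10 genes were called in the HIF-2α line, SLC2A1 and SLC2A3 higher and SLC16A7 lower, where 5.72% of all tested genes were called. In the HIF-1α line 2 were called, SLC16A3 and SLC2A12, both higher, where 3.79% of all genes were called. None was called in the other 6 lines by edgeR, where 1.38% (HIF-1β KIN), 4.14% (HIF-2α KIN), 2.61% (HIF-1α R30E), 0.457% (HIF-1αDM), 0.496% (HIF-2α R27E) and 0.474% (HIF-2αDM) of all genes were called. At an unadjusted p under 0.05 these lines had 2, 7, 2, 0, 0 and 0 of the 10 genes, and DESeq2 called SLC2A12 in HIF-2α KIN and none in the other 5. The share of all genes under that unadjusted p was not counted, here or below. Such counts therefore have no background and do not set the 10 genes apart from others. Among the second-batch lines, 3 of the 10 were called with HIF-2α (background 7.58%) and 3 with HIF-1α/2α (7.78%), in both SLC2A1 and SLC2A3 higher and SLC16A7 lower. With HIF-1α only SLC2A12 was called (4.39%). With HIF-2α/1α none was called by edgeR or DESeq2 (3.49%), while 8 had an unadjusted p under 0.05. The median log2 change of the 10 genes was 0.42 with HIF-2α and 0.37 with HIF-1α in the first batch, against -0.09 and -0.03 over all genes. Within the second batch it was 0.10 with HIF-2α and 0.28 with HIF-1α, against 0.07 and 0.03. The 4 second-batch comparisons share their WT libraries, as do the 8 of the first batch.

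**Figure D1:**
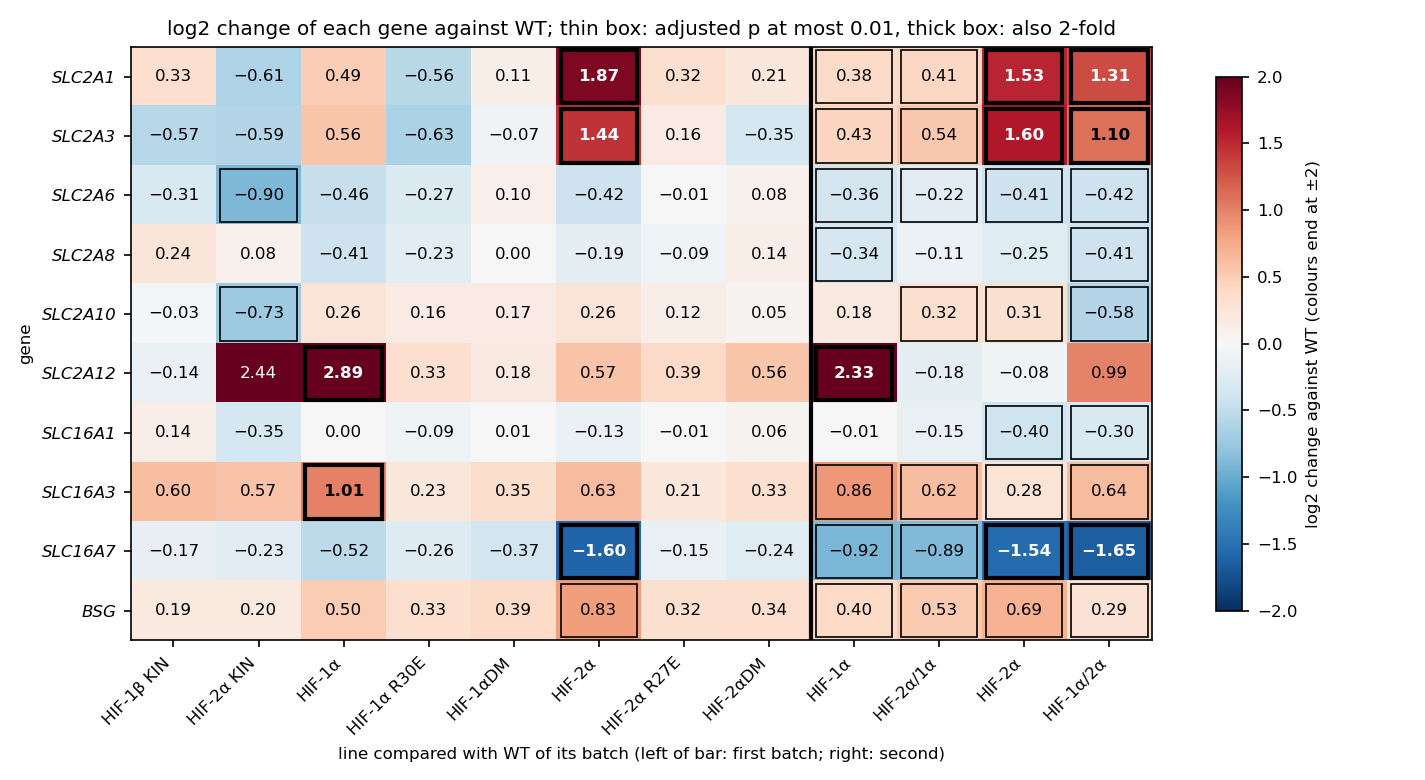
Heat map of the log2 change of each gene (rows) against WT cells of the same batch (columns, first batch left of the bar), with the value printed in each cell, a thin box where the adjusted p was at most 0.01 and a thick box where the change was also at least 2-fold. SLC2A1 and SLC2A3 carry thick boxes with HIF-2α in both batches (1.87 and 1.44 in the first, 1.53 and 1.60 in the second), and SLC16A7 is blue in the same columns (-1.60 and -1.54).

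SLC2A1 (ENSG00000117394.23; chromosome 1 of hg38, 42925353 to 42958893, minus strand), the main basal glucose transporter, was the most abundant GLUT gene per exon length in every line. For the first batch, the 3 WT libraries had 1616, 1607 and 1842 CPM and the HIF-2α libraries 6282, 6012 and 6222. The HIF-1α libraries had 2111, 2602 and 2404 CPM. All HIF-2α libraries thus lay far above every other library of the batch, none of which passed 2602. The rise with HIF-2α was 3.66-fold (log2 1.87, SE 0.168, adjusted p = 5.64e-09). The HIF-1α libraries also lay above the WT range, with a log2 change of 0.49 (95% confidence interval 0.16 to 0.83, adjusted p = 0.0632) that did not pass the threshold. Levels were 1026 to 1249 CPM in HIF-2α KIN and 945 to 1268 in HIF-1α R30E, below every WT library in both, with log2 changes of -0.61 (adjusted p = 0.0149) and -0.56 (adjusted p = 0.0380) that did not pass. Blocked by replicate number, the HIF-2α KIN change passed (-0.60, adjusted p = 0.00220). In HIF-2α KIN, EPAS1 RNA was also lower than in WT cells, at 92.0 ± 7.41 against 216 ± 30.1 CPM (SD, n = 3 each). By western blot, the paper reports tagged HIF-2α protein of clone A31 at a level similar to WT. A link between EPAS1 RNA and SLC2A1 in this clone was not tested. The order of the line means ran from HIF-2α KIN (1109 CPM) to HIF-2α (6172 CPM), and 6 of the 8 pairs of neighbours in it overlapped.

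In the second batch SLC2A1 had 1109, 1081 and 1105 CPM in WT cells and 3314, 3182 and 3012 with HIF-2α. HIF-1α/2α libraries had 2689, 2832 and 2649 CPM. HIF-1α libraries had 1491, 1434 and 1366, and HIF-2α/1α libraries 1583, 1410 and 1373. WT cells were thus lowest, both lines with the HIF-1α IDR came next and overlapped each other, HIF-1α/2α lay above them, and HIF-2α was highest, with no overlap between these 4 levels. Against WT cells the gene rose in all 4 lines, by log2 1.53 (SE 0.0489) with HIF-2α, 1.31 (SE 0.0486) with HIF-1α/2α, 0.41 (SE 0.0479) with HIF-2α/1α and 0.38 (SE 0.0479) with HIF-1α, with the largest of the 4 adjusted p-values at 1.56e-08.

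SLC2A3 (ENSG00000059804.16; chromosome 12, 7919230 to 8019007, minus strand), a high-affinity glucose transporter best known from neurons, was expressed at far lower counts. First-batch WT libraries had 12.1, 10.5 and 8.50 CPM, HIF-2α libraries 32.5, 30.6 and 21.4, and HIF-1α libraries 17.1, 18.1 and 10.4. The HIF-2α libraries lay above all others of the batch, whereas HIF-1α overlapped WT, its library 3 lying within the WT range. SLC2A3 rose 2.72-fold with HIF-2α (log2 1.44, SE 0.249, adjusted p = 1.38e-04). With HIF-1α the log2 change was 0.56 (adjusted p = 0.202), and it passed with the replicate number as a block (0.53, adjusted p = 0.00880). The lowest mean was that of HIF-1α R30E, at 6.70 CPM (log2 -0.63, adjusted p = 0.168). Both KIN clones were also lower than WT in mean, at 6.88 CPM in HIF-2α KIN and 6.95 in HIF-1β KIN against 10.3, changes that passed with the block only (-0.60, adjusted p = 0.00265, and -0.58, adjusted p = 0.00817). Among the second-batch lines, WT cells had 17.4 ± 0.544 CPM, HIF-1α 23.5 ± 1.10, HIF-2α/1α 25.4 ± 1.65, HIF-1α/2α 37.3 ± 1.60 and HIF-2α 52.7 ± 1.62 (SD, n = 3 each). HIF-1α and HIF-2α/1α overlapped and all other neighbours were separate. Log2 changes were 0.43, 0.54, 1.10 and 1.60 in that order, each with an adjusted p of 1.60e-06 or less. Of its 50-base stretches 14.8% occur in transcripts of other genes, 13.3% in SLC2A14, the near-identical neighbouring transporter, so reads from these stretches, kept only if unique, could be lost from either gene.

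SLC2A6 (ENSG00000160326.14), a GLUT of inner membranes that was the second GLUT gene by level per exon length, moved the other way. Within the second batch it fell in all 4 lines by less than 2-fold, from a WT level of 149 ± 6.36 CPM to 128 ± 7.08 in the HIF-2α/1α line, 117 ± 3.21 in HIF-1α, 112 ± 8.34 in HIF-2α and 111 ± 11.5 in HIF-1α/2α cells (SD, n = 3 each). No library of these lines reached the WT range, and the log2 changes ran from -0.42 to -0.22 with adjusted p-values up to 0.00495. In the first batch it fell in HIF-2α KIN, from 299, 339 and 418 CPM in WT cells to 198, 158 and 209 (log2 -0.90, SE 0.208, adjusted p = 0.00434). Without WT library 1 this change was -1.01 and was called. First-batch values with HIF-1α (log2 -0.46, adjusted p = 0.214) and HIF-2α (-0.42, adjusted p = 0.198) did not pass.

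SLC2A8 (ENSG00000136856.18), an intracellular hexose transporter, fell in the second batch with HIF-1α (log2 -0.34, SE 0.0790, adjusted p = 9.32e-04) and with HIF-1α/2α (-0.41, SE 0.0792, adjusted p = 3.59e-05). WT libraries lay between 37.5 and 38.3 CPM, and HIF-1α libraries between 28.2 and 33.1. With HIF-2α the change was -0.25 (adjusted p = 0.0103). For the first batch, its lines spanned 60.1 to 94.9 CPM, all neighbours overlapped, and no change passed.

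SLC2A10 (ENSG00000197496.6), the GLUT whose loss causes arterial tortuosity syndrome, had a pattern of its own in the second batch. WT libraries had 28.7, 30.4 and 30.0 CPM. HIF-1α/2α libraries had 20.5, 21.1 and 17.8, all below WT, whereas HIF-2α libraries had 37.4, 37.4 and 35.4 and HIF-2α/1α libraries 39.5, 38.4 and 33.1, all above WT. The gene thus rose with HIF-2α (log2 0.31, SE 0.0724, adjusted p = 6.02e-04) and HIF-2α/1α (0.32, SE 0.0723, adjusted p = 6.96e-04) and fell with HIF-1α/2α (-0.58, SE 0.0736, adjusted p = 7.20e-09). Within the first batch it fell in HIF-2α KIN, from 53.6 ± 3.77 to 32.2 ± 4.98 CPM (SD, n = 3 each), with a log2 change of -0.73 (SE 0.145, adjusted p = 9.42e-04).

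SLC2A12 (ENSG00000146411.6; chromosome 6, 133987581 to 134052624, minus strand), a transporter also known as GLUT12, was barely expressed: no library held more than 79 reads and the lowest held 2. The HIF-1α libraries of the first batch had 0.745, 1.63 and 0.502 CPM against 0.197, 0.101 and 0.0837 in WT cells, and those of the second 0.388, 0.454 and 0.339 against 0.108, 0.0993 and 0.0224. In both batches all HIF-1α libraries lay above all WT libraries. The log2 change was 2.89 (SE 0.650, adjusted p = 0.00391) in the first batch and 2.33 (SE 0.575, adjusted p = 0.00161) in the second. In HIF-2α KIN the libraries had 0.506, 0.723 and 0.856 CPM, and the log2 change of 2.44 (SE 0.644, adjusted p = 0.0129) was called with the replicate number as a block (2.38, adjusted p = 0.00400) and not without it. The HIF-2α lines, at 0.192 ± 0.124 and 0.0721 ± 0.0305 CPM (SD, n = 3 each), overlapped WT. The first-batch call was lost without HIF-1α library 2 (log2 2.28, adjusted p = 0.0474), without WT library 2 (adjusted p = 0.0295) or 3 (0.0324), and without all libraries numbered 3 (adjusted p = 0.0125). The second-batch call was lost without HIF-1α library 2 (adjusted p = 0.0119) or WT library 3 (0.0198). Strand was not used in counting, and in union mode a read over exons of both genes is counted for neither. Of the 50-base stretches of SLC2A12, 50.8% lie antisense to transcripts of TBPL1, so reads from these stretches could be lost from either gene.

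**Figure D2:**
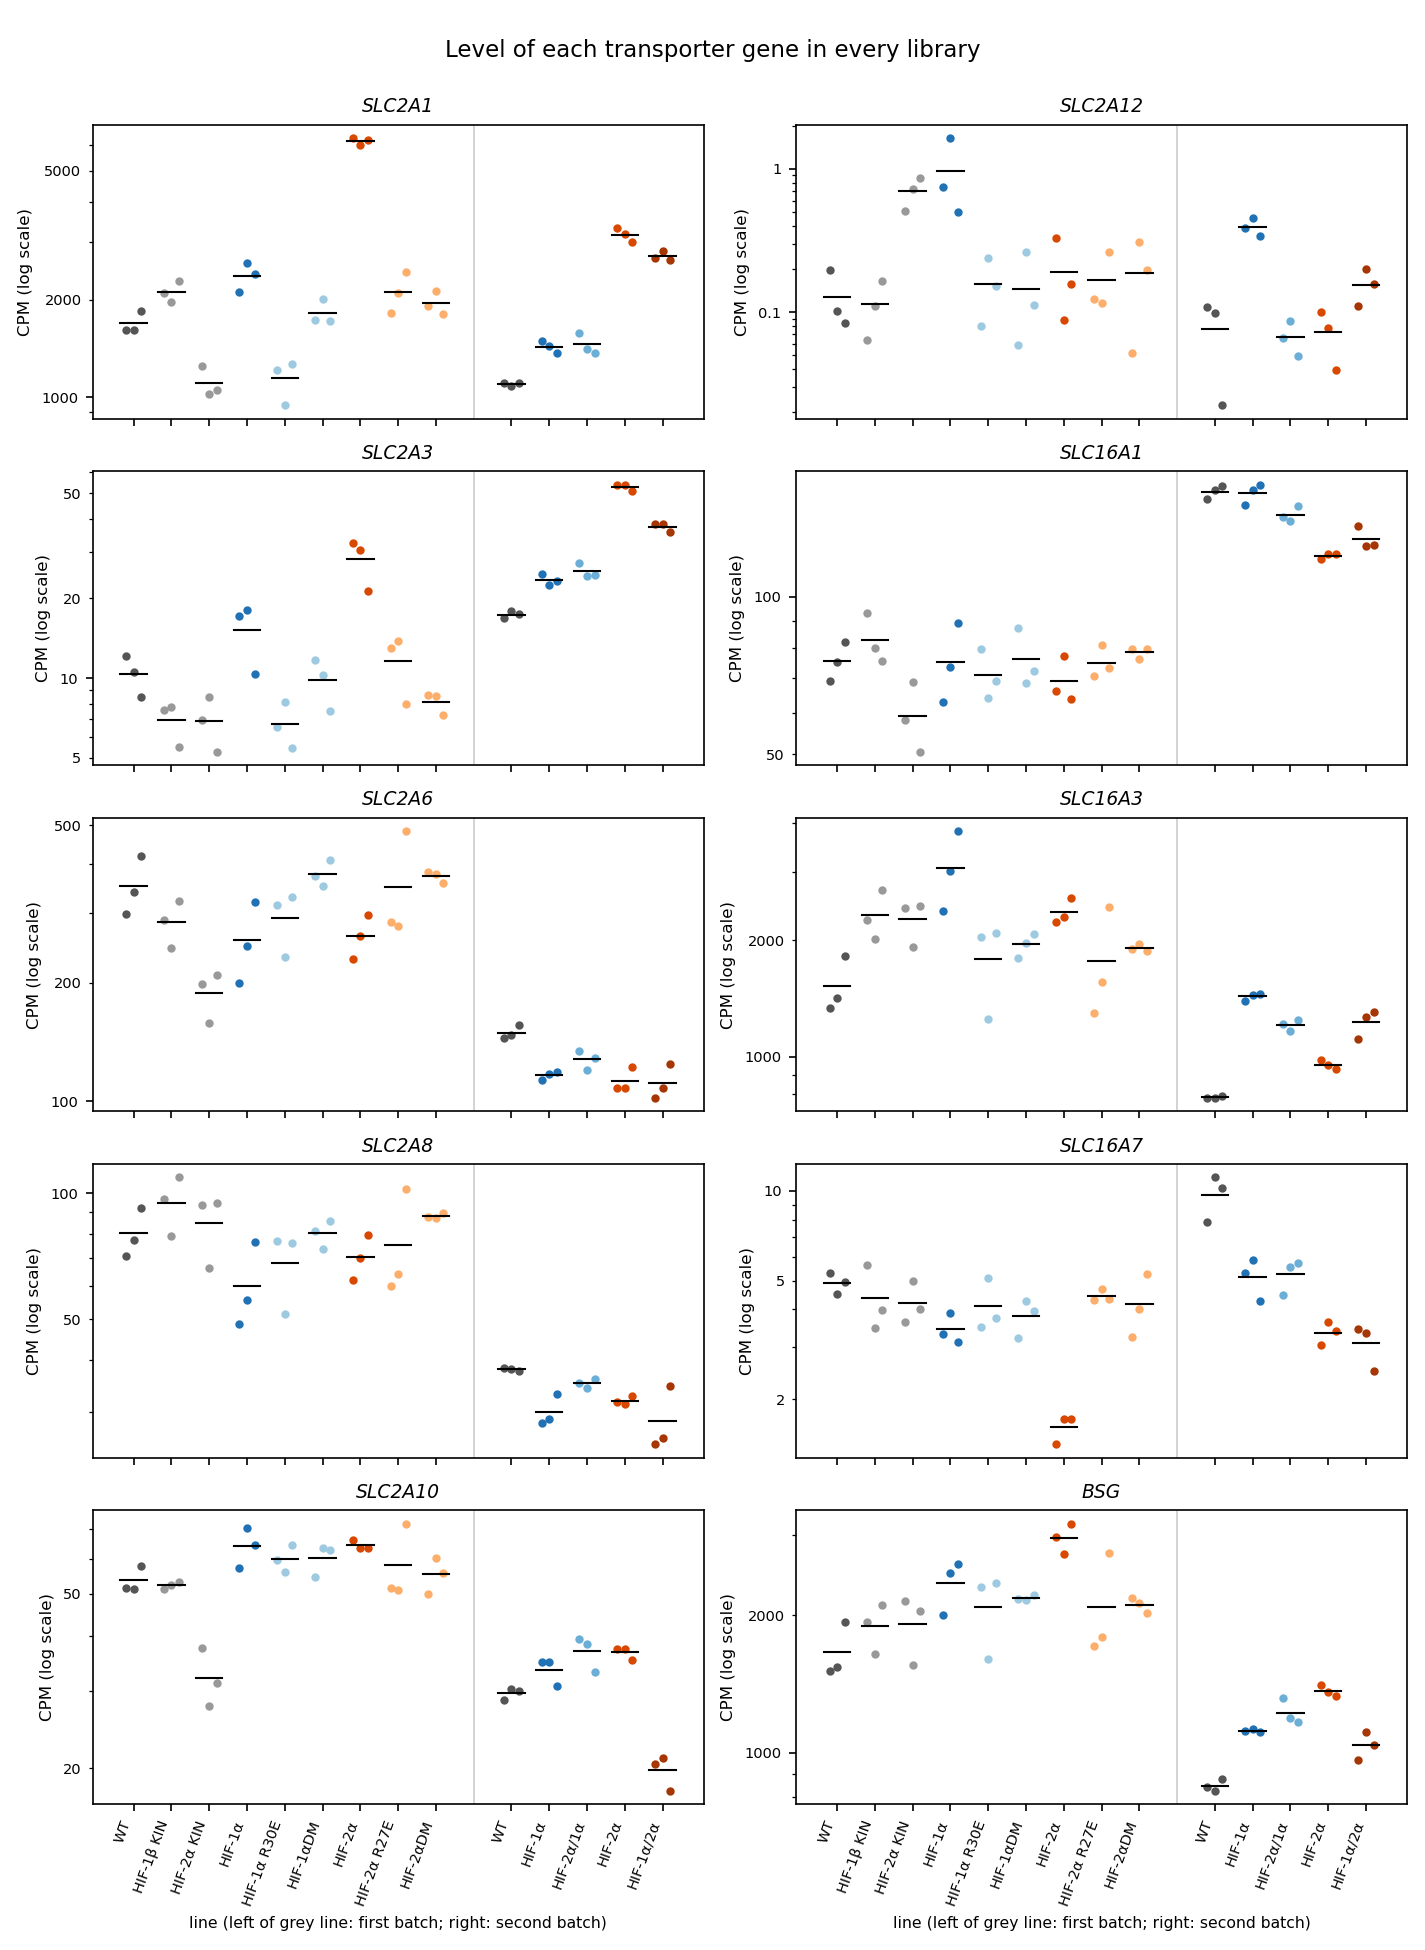
Level of each gene in every library (points, CPM on a log axis) by line, with the first batch left of the grey line, the second right of it, and horizontal bars at the means of 3 libraries. The SLC2A1 points of the first-batch HIF-2α line, at 6012 to 6282 CPM, lie above all other libraries of that batch. SLC16A7 in that line, at 1.41 to 1.72 CPM, lies below all others of the batch.

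SLC16A3 (ENSG00000141526.16; chromosome 17, 82217934 to 82261129, plus strand), the low-affinity transporter through which glycolytic cells release lactate, rose with HIF-1α. First-batch WT libraries had 1335, 1418 and 1824 CPM and HIF-1α libraries 2379, 3008 and 3823, with no overlap. The rise was 2.01-fold (log2 1.01, SE 0.227, adjusted p = 0.00392), just past both thresholds. It was no longer called without HIF-1α library 3 (log2 0.82, adjusted p = 0.0327) or 2 (1.02, adjusted p = 0.0137), without WT library 1 (0.92, adjusted p = 0.0309) or 2 (0.96, adjusted p = 0.0287), or when only these 2 groups were fitted (1.03, adjusted p = 0.0234). Levels of 2229 to 2575 CPM with HIF-2α also lay above all WT libraries, with a log2 change of 0.63 (adjusted p = 0.0629). Values of both KIN clones did so as well, with log2 changes of 0.60 (adjusted p = 0.194) in HIF-1β KIN and 0.57 (adjusted p = 0.118) in HIF-2α KIN. None of these 3 passed.

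In the second batch SLC16A3 had 785, 783 and 791 CPM in WT cells and 1393, 1446 and 1455 with HIF-1α. HIF-2α libraries had 979, 954 and 929 CPM, HIF-2α/1α libraries 1214, 1167 and 1242, and HIF-1α/2α libraries 1113, 1270 and 1302. HIF-1α was highest, the 2 chimeras overlapped, and HIF-2α lay between the chimeras and WT. The gene rose in all 4 lines without reaching 2-fold: log2 0.86 (SE 0.0479) with HIF-1α, 0.64 (SE 0.0478) with HIF-1α/2α, 0.62 (SE 0.0478) with HIF-2α/1α and 0.28 (SE 0.0476) with HIF-2α, with adjusted p-values of 4.48e-06 or less. It was lower with HIF-2α than with HIF-1α by log2 -0.59 (SE 0.0477, adjusted p = 9.11e-14), the reverse of SLC2A1 and SLC2A3.

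SLC16A1 (ENSG00000155380.11), the widely expressed MCT1, spanned the narrowest range of line means among the 10 genes, 1.40-fold in the first batch and 1.32-fold in the second. In the first batch the 9 lines ran from 59.1 to 82.8 CPM, every pair of neighbours in their order overlapped, and no change passed. Among the second-batch lines, it fell with HIF-2α, from 154, 160 and 163 CPM in WT cells to 118, 121 and 121 (log2 -0.40, SE 0.0525, adjusted p = 1.54e-08), and with HIF-1α/2α, to 137, 125 and 126 (-0.30, SE 0.0524, adjusted p = 7.66e-06). With HIF-1α it had 150, 160 and 164 CPM, over the same range as WT.

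SLC16A7 (ENSG00000118596.12; chromosome 12, 59596029 to 59789855, plus strand), the high-affinity MCT2, was the one gene of the 10 called lower against WT. First-batch WT libraries had 5.32, 4.52 and 4.94 CPM and HIF-2α libraries 1.41, 1.72 and 1.72, below every other library of the batch. The fall was 3.04-fold (log2 -1.60, SE 0.229, adjusted p = 1.14e-05). HIF-1α libraries had 3.32, 3.89 and 3.12 CPM, below WT, with a log2 change of -0.52 (adjusted p = 0.178). Within the second batch WT libraries had 7.86, 11.1 and 10.2 CPM, and the gene fell in all 4 lines. HIF-2α libraries had 3.03, 3.62 and 3.38 CPM and HIF-1α/2α libraries 3.43, 3.33 and 2.48, whereas HIF-1α libraries had 5.31, 5.86 and 4.26 and HIF-2α/1α libraries 4.49, 5.56 and 5.71. Both lines with the HIF-2α IDR thus lay below both lines with the HIF-1α IDR. Log2 changes were -1.54 (SE 0.137) with HIF-2α, -1.65 (SE 0.138) with HIF-1α/2α, -0.92 (SE 0.132) with HIF-1α and -0.89 (SE 0.132) with HIF-2α/1α, with adjusted p-values up to 8.36e-07. The HIF-1α change was called without HIF-1α library 2 (-1.02) or WT library 1 (-1.05), and the HIF-2α/1α change without WT library 1 (-1.02).

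BSG (ENSG00000172270.19; chromosome 19, 571277 to 583494, plus strand), the chaperone of MCT1 and MCT4, was lowest in WT cells in both batches. It rose with HIF-2α in the first batch, from 1514, 1543 and 1935 to 2962, 2716 and 3168 CPM (log2 0.83, SE 0.196, adjusted p = 0.00430). In the second batch WT cells had 848 ± 25.7 CPM, HIF-1α/2α 1038 ± 73.5, HIF-1α 1119 ± 10.1, HIF-2α/1α 1226 ± 81.5 and HIF-2α 1367 ± 37.8 (SD, n = 3 each). It rose in all 4, by log2 0.29, 0.40, 0.53 and 0.69 in that order, with adjusted p-values up to 3.05e-06, and in none by 2-fold. First-batch libraries of HIF-1α, at 2005 to 2593 CPM, and of the dimerization mutants HIF-1αDM, at 2158 to 2216, and HIF-2αDM, at 2019 to 2177, also lay above all WT libraries, but none of these changes passed (adjusted p = 0.130, 0.588 and 0.676).

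The mutant lines carry the same kind of transgene with mutations reported to impair DNA binding or to disrupt dimerization. The question is where the functional protein differed from them. Against HIF-2α R27E and HIF-2αDM, functional HIF-2α had SLC2A1 and SLC2A3 higher and SLC16A7 lower, 3 genes called of 10 in each comparison, where 3.63% and 3.96% of all genes were called. SLC2A1 libraries of the 2 mutants had 1824 to 2431 and 1800 to 2130 CPM, and the log2 differences were 1.55 (SE 0.166, adjusted p = 2.04e-07) and 1.66 (SE 0.167, adjusted p = 5.82e-08). SLC2A3 differed by 1.28 (SE 0.248, adjusted p = 8.16e-04) and 1.79 (SE 0.252, adjusted p = 1.21e-05). SLC16A7, at 4.31 to 4.70 and 3.24 to 5.27 CPM in the mutants, differed by -1.46 (SE 0.229, adjusted p = 6.45e-05) and -1.37 (SE 0.228, adjusted p = 1.27e-04). SLC16A3 differed by 0.42 (adjusted p = 0.304) and 0.31 (adjusted p = 0.486), with 95% confidence intervals of -0.04 to 0.89 and -0.16 to 0.77.

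HIF-1α was set against its 2 mutants in the same way, and its difference from one was not tested against that from the other. Against HIF-1α R30E, 2 of the 10 genes were called, SLC2A1 and SLC2A3, both higher with HIF-1α (background 1.75%). SLC2A1 differed by log2 1.05 (SE 0.164, adjusted p = 1.15e-04), and its R30E libraries, at 945 to 1268 CPM, were below WT, as described above. Without HIF-1α library 2 or R30E library 2 this difference was under 2-fold (0.98 and 0.94), and with only the 2 groups fitted its adjusted p was 0.0287. SLC2A3 differed by 1.18 (SE 0.249, adjusted p = 0.00399), with its R30E libraries at 5.45 to 8.14 CPM, also below WT, and was not called without HIF-1α library 1 (1.09) or 2 (1.04) or R30E library 1 (1.16) or 3 (1.05). Against HIF-1αDM none was called by edgeR (background 1.37%), while 5 had an unadjusted p under 0.05 and DESeq2 called SLC2A12. SLC2A1 differed from HIF-1αDM by 0.38 (adjusted p = 0.321), SLC2A3 by 0.62 (adjusted p = 0.252) and SLC16A3 by 0.66 (adjusted p = 0.156). SLC2A12 differed by 2.71 from HIF-1αDM (SE 0.646, adjusted p = 0.0156) and by 2.57 from R30E (SE 0.644, adjusted p = 0.0185), with all HIF-1α libraries above all libraries of both mutants.

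Compared directly in the first batch, HIF-2α had SLC2A1 higher than HIF-1α by log2 1.38 (SE 0.165, adjusted p = 2.25e-06) and SLC16A7 lower by -1.09 (SE 0.228, adjusted p = 0.00291), 2 of 10 called (background 2.4%). The SLC16A7 call was lost without HIF-1α library 2 (-0.99), without any 1 of the HIF-2α libraries (adjusted p-values of 0.0117 to 0.0258), without all libraries numbered 3 (-1.21, adjusted p = 0.0119) and with only the 2 groups fitted (-1.07, adjusted p = 0.0279). SLC2A3 differed by 0.89 (adjusted p = 0.0297; 0.90 with the replicate block, adjusted p = 2.08e-05) and SLC16A3 by -0.38 (adjusted p = 0.465). In the same comparison of the second batch 3 of 10 were called (background 3.78%): SLC2A1 higher by 1.15 (SE 0.0484, adjusted p = 1.49e-23), SLC2A3 higher by 1.17 (SE 0.0666, adjusted p = 7.47e-19) and SLC2A12 lower by -2.41 (SE 0.590, adjusted p = 0.00141). The SLC2A12 call was lost without HIF-1α library 2 (adjusted p = 0.0101) or HIF-2α library 3 (0.0138).

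The 4 transgene lines of the second batch allow the IDR and the structured domain to be compared. Each combination is named as a single line, so other differences between lines cannot be told apart from effects of the domains. The IDR effect is the mean log2 difference of the 2 lines with the HIF-2α IDR from the 2 with the HIF-1α IDR, and the structured-domain effect is the same for the N-terminal domains. SLC2A1, SLC2A3 and SLC16A7 differed mainly with the IDR. The IDR effect was 1.03 (SE 0.0341, adjusted p = 8.42e-28) on SLC2A1, 0.86 (SE 0.0470, adjusted p = 6.34e-20) on SLC2A3 and -0.69 (SE 0.0986, adjusted p = 1.36e-07) on SLC16A7. Their structured-domain effects were 0.12 (adjusted p = 0.00762), 0.30 (adjusted p = 2.34e-06) and 0.07 (adjusted p = 0.711). SLC16A1 had an IDR effect of -0.27 (SE 0.0371, adjusted p = 5.52e-08). BSG differed with the structured domain, with an effect of 0.26 (SE 0.0346, adjusted p = 9.31e-08) against an IDR effect of 0.02 (95% confidence interval -0.05 to 0.09). That IDR effect averages pairs of opposite sign, 0.16 for HIF-2α over HIF-2α/1α (adjusted p = 0.0143) and -0.11 for HIF-1α/2α over HIF-1α (adjusted p = 0.104). SLC2A10 had an IDR effect of -0.39 (adjusted p = 3.33e-08) and a structured-domain effect of 0.51 (adjusted p = 1.23e-10). Both averages rest mostly on HIF-1α/2α, at 19.8 CPM against 33.6 with HIF-1α, 36.7 with HIF-2α and 37.0 with HIF-2α/1α. Its IDR pairs were -0.01 for HIF-2α over HIF-2α/1α (adjusted p = 0.956) and -0.76 for HIF-1α/2α over HIF-1α (adjusted p = 1.26e-11). SLC16A3 was lower with either part of HIF-2α, by -0.28 for the IDR (SE 0.0337, adjusted p = 2.75e-09) and -0.31 for the structured domain (SE 0.0337, adjusted p = 1.52e-09), and its interaction did not pass (-0.12, adjusted p = 0.323). Past 2-fold, only SLC2A1 was called for the IDR (background 4.41%) and only SLC2A12 for the structured domain (background 1.04%), with -1.79 (SE 0.425, adjusted p = 0.00164). SLC2A12 libraries held 3 to 9 reads with HIF-2α and 4 to 9 with HIF-2α/1α, against 12 to 15 with HIF-1α/2α and 32 to 42 with HIF-1α. The SLC2A1 effect was just under 2-fold without HIF-2α/1α library 3.

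In single pairs, HIF-2α exceeded HIF-2α/1α, with which it shares the structured domain, in SLC2A1 by 1.12 (SE 0.0484, adjusted p = 3.35e-23) and in SLC2A3 by 1.05 (SE 0.0665, adjusted p = 2.71e-17), 2 of 10 called (background 3.19%). HIF-1α/2α exceeded HIF-1α in SLC2A1 by 0.93 (SE 0.0482, adjusted p = 2.10e-20) and in SLC2A3 by 0.67 (SE 0.0665, adjusted p = 2.80e-11), and was lower in SLC2A10 by -0.76 (SE 0.0736, adjusted p = 1.26e-11). None of these reached 2-fold in edgeR or DESeq2 (background 4.65%). At an unadjusted p under 0.05, for which no background was counted, there were 8 of the 10 genes. The interaction, by which the IDR effect differs between the 2 structured domains, passed for SLC2A10 (0.75, SE 0.103, adjusted p = 7.06e-07), SLC2A3 (0.39, SE 0.0935, adjusted p = 0.00405) and BSG (0.27, SE 0.0691, adjusted p = 0.00807) and was called for none (background 1.18%; 4 with an unadjusted p under 0.05, none called by DESeq2). HIF1A counts were 147 CPM in the HIF-1α line and 101 to 115 CPM in every library of both chimeras, and EPAS1 counts were 574 CPM in the HIF-1α/2α line and 475 in the HIF-2α line. Each chimera holds only part of the coding sequence of each gene, so its counts and those of a full-length transgene are not like measures of transgene level. The part of transgene level in these differences was not tested.

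**Figure D3:**
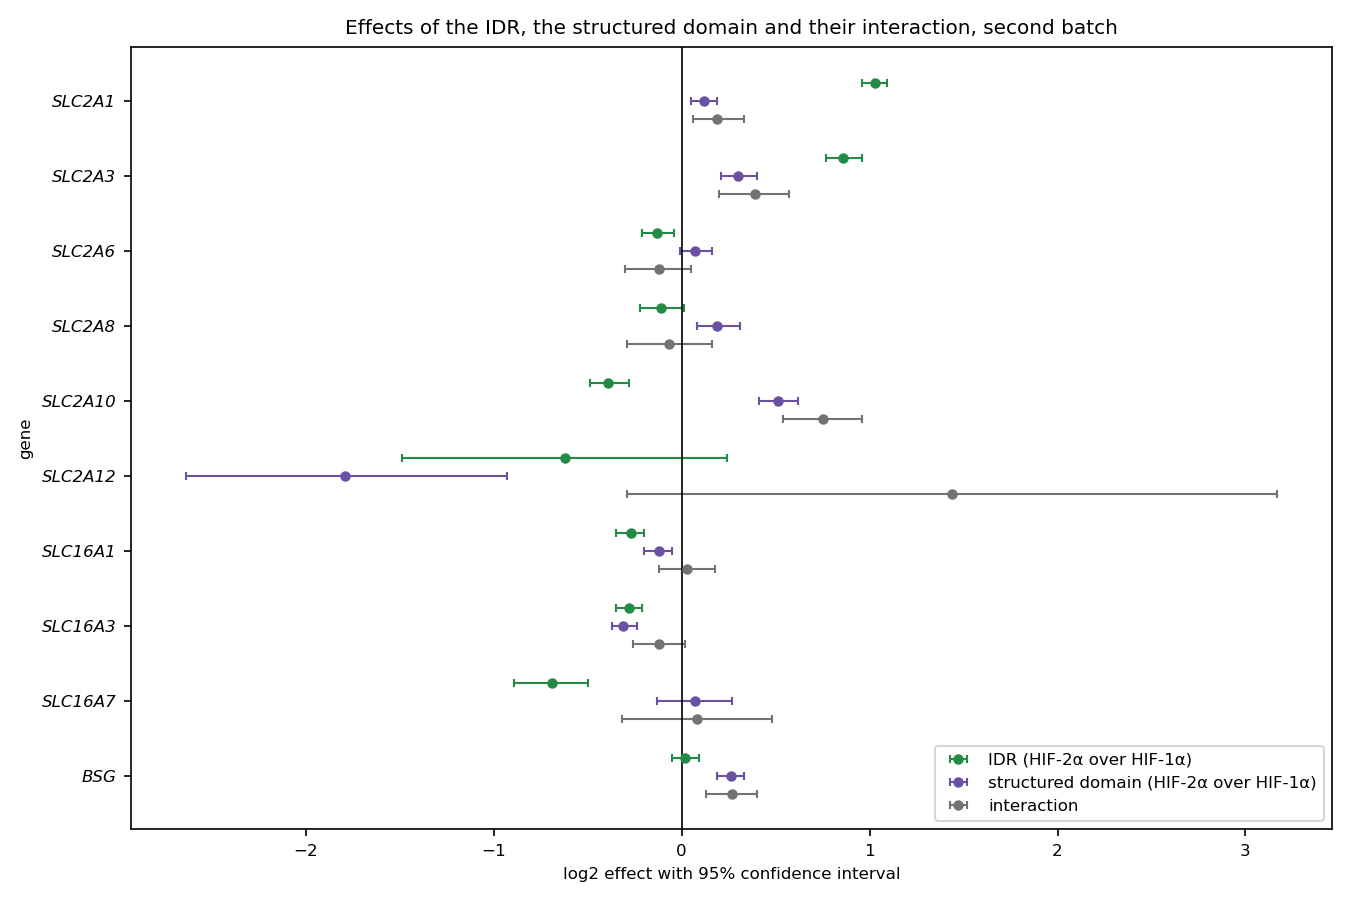
IDR effect, structured-domain effect and their interaction on each gene in the second batch (points, log2, with 95% confidence intervals). Positive IDR and structured-domain effects are higher with the HIF-2α part. A positive interaction is an IDR effect more positive on the structured domain of HIF-2α than on that of HIF-1α. The IDR points of SLC2A1 (1.03) and SLC2A3 (0.86) lie far right of 0 and that of SLC16A7 (-0.69) left of it, the SLC2A10 interaction (0.75) lies clear of 0, and the SLC2A12 intervals are the widest.

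Responses in the 2 batches were compared by fitting together the lines that both held (WT, HIF-2α, HIF-1α). None of the 10 genes was called as responding differently by edgeR or DESeq2, to HIF-1α (0.00374% of all genes called) or to HIF-2α (0%). With so few genes called at all, this does not show that the responses were equal. At an unadjusted p under 0.05 there were 1 and 3. The lowest adjusted p belonged to SLC2A1 with HIF-2α, whose log2 response differed by -0.48 in the second batch (95% confidence interval -0.83 to -0.14, adjusted p = 0.282). With DESeq2 this difference was -0.40 (adjusted p = 0.196). Intervals with HIF-2α also excluded 0 for SLC16A3 (-0.93 to -0.06, adjusted p = 0.406) and SLC16A1 (-0.75 to -0.08, adjusted p = 0.354). The interval for SLC2A3 with HIF-2α was -0.48 to 0.51 around 0.01 and that for SLC16A7 -0.59 to 0.44 around -0.08. RNA extraction and library preparation differed between the batches, so the levels themselves are not compared across them.

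Divided by exon length (CPM per kilobase), SLC2A1 made up 65.9% of the summed level of the 6 SLC2A genes in WT cells of the first batch (libraries 64.2% to 68.0%) and SLC2A6 25.6%. With HIF-2α the share of SLC2A1 was 89.5% (88.7% to 90.6%) and that of SLC2A6 7.14%. The summed level was 1043 ± 21.8 with HIF-2α, 462 ± 51.7 with HIF-1α and 388 ± 40.0 in WT cells (SD, n = 3 each). Second-batch sums were 534 ± 21.1 with HIF-2α, 460 ± 13.1 for HIF-1α/2α, 276 ± 19.0 for HIF-2α/1α, 267 ± 8.49 with HIF-1α and 227 ± 3.11 in WT cells (SD, n = 3 each). Most of the summed GLUT level was thus SLC2A1 in all of these lines, and SLC2A3 held only 0.373% of it in the first-batch HIF-2α line and 1.36% in that of the second. Of the 3 SLC16A genes, SLC16A3 made up 93.0% per exon length in first-batch WT cells and 76.8% in second-batch WT cells. The ratio of SLC16A3 to SLC16A1 per exon length in the first batch was 27.9 with HIF-1α (libraries 26.0 to 29.5), 23.8 with HIF-2α (20.4 to 27.7) and 13.8 in WT cells (13.0 to 15.3). For the second it was 6.56 in HIF-1α/2α, 6.24 in HIF-1α, 5.78 in HIF-2α/1α and 5.46 in HIF-2α cells, in every library above WT cells (3.34 to 3.50, mean 3.40). Exon length is that of all annotated exons merged, which is longer than a single transcript.

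**Figure D4:**
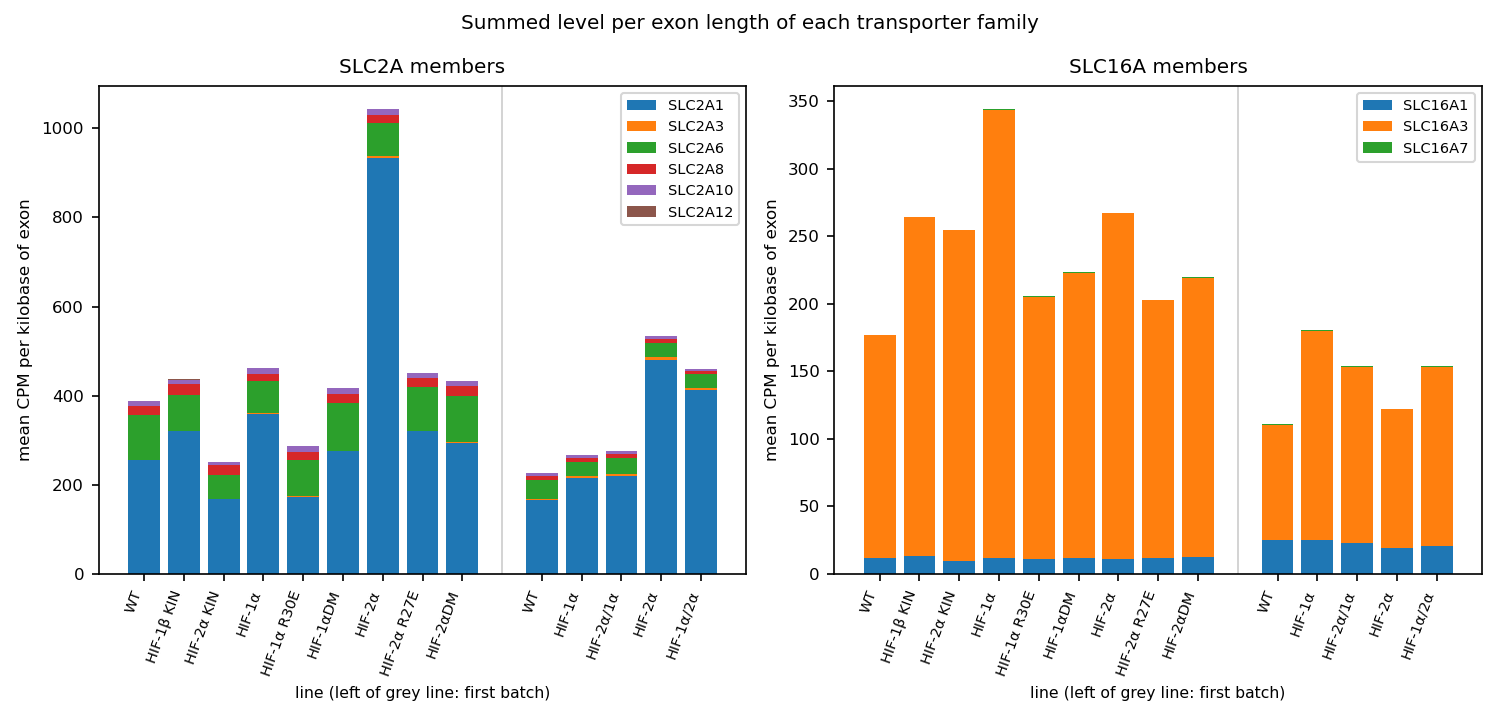
Mean level per kilobase of exon (CPM per kilobase) in each line, stacked by gene, for the 6 SLC2A genes (left) and the 3 SLC16A genes (right), with the first batch left of the grey line. Within the first batch the tallest SLC2A bar is that of the HIF-2α line, at 1043, nearly all of it SLC2A1. The tallest SLC16A bar of that batch is that of the HIF-1α line, at 344, nearly all of it SLC16A3.

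Genes with patterns most like 4 of the 10 were sought among 12461 others whose normalized counts averaged 50 or more in both batches, by the root mean square of the differences in log2 change over the 12 comparisons with WT. Nearest to SLC2A1 were TPBG (0.21), ADPRHL1 (0.23) and LPCAT1 (0.26), where the median gene was at 0.95. Nearest to SLC2A3 were AC093512.2 (0.25), MAN2B2 (0.26) and TPBG (0.28), nearest to SLC16A3 were STARD8 (0.16), DPCD (0.19) and UAP1L1 (0.19), and nearest to SLC16A1 were G3BP2, TOR1AIP1 and GDI2 (0.08 each). Of the 10 genes all but SLC2A12 passed this count minimum. Among these 9, the closest were SLC2A8 and SLC16A1 (0.21) and SLC16A1 and SLC2A6 (0.29). SLC16A3 and BSG were 0.31 apart and SLC2A1 and SLC2A3 0.35, while SLC2A1 and SLC16A7 were 1.73 apart. The 12 comparisons share 6 WT libraries, so this describes likeness only.

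Other transporters and partners were counted from lists set beside the 10 genes. Like these, the lists were chosen with earlier results of these data known, so the counts are descriptive. Of 11 partners and regulators (the MCT chaperone EMB, the glucose-uptake inhibitors TXNIP and ARRDC4, their regulators MLXIP and MLXIPL, the hexokinases HK1 and HK2, lactate dehydrogenases LDHA and LDHB, and the mitochondrial pyruvate carrier MPC1 and MPC2), 10 of the first batch and 11 of the second were tested. With HIF-1α 4 were called higher in each batch and none lower (3.79% and 4.39% of all genes were called, in either direction). With HIF-2α 3 were called higher in the first batch (5.72%), 1 in the other (7.58%), with HIF-1α/2α 4 (7.78%) and with HIF-2α/1α 1 (3.49%), and in HIF-2α KIN 2 were called lower (4.14%). TXNIP, an arrestin that removes GLUT1 from the cell surface, rose with both proteins: from 8.89 to 65.8 CPM with HIF-1α (log2 2.89, SE 0.357, adjusted p = 2.35e-06) and to 30.1 with HIF-2α (1.76, SE 0.344, adjusted p = 6.43e-04) in the first batch. In the second its log2 changes were 2.70 with HIF-1α, 2.08 with HIF-2α, 1.84 with HIF-1α/2α and 0.73 with HIF-2α/1α (adjusted p-values up to 2.04e-10). Its relative ARRDC4 was called higher with HIF-1α in both batches (1.51 and 1.41), with HIF-2α in the first (1.21) and with HIF-1α/2α (1.29), and lower in HIF-2α KIN (-1.43, SE 0.291, adjusted p = 0.00128). HK2, which traps glucose inside the cell, was called higher with HIF-1α in both batches (1.13 and 1.19), with HIF-2α in the first (1.27) and with HIF-1α/2α (1.41), and lower in HIF-2α KIN (-1.20, SE 0.193, adjusted p = 8.70e-05). With HIF-2α/1α HK2 was at 57.1 CPM against 53.9 in WT cells (log2 0.08, adjusted p = 0.356). LDHA, which makes lactate, was called higher with HIF-1α in both batches (1.20 and 1.16) and with both chimeras (1.14 and 1.17).

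Of the 11 other SLC16A genes, 9 of the first batch and 10 of the second were tested. With HIF-2α 1 was called higher and 3 lower in the first batch (5.72% of all genes called), and 3 lower in the second (7.58%). With HIF-1α/2α 2 were called higher and 3 lower (7.78%), with HIF-1α (4.39%) and HIF-2α/1α (3.49%) 1 lower each in the second batch, in HIF-2α KIN 2 higher (4.14%), and in HIF-1β KIN 1 lower (1.38%). SLC16A12, SLC16A4 and SLC16A6 were lower with HIF-2α in both batches, like SLC16A7: SLC16A12 by -1.96 and -2.28, SLC16A4 by -1.98 and -1.55, and SLC16A6 by -2.31 and -2.73. All 3 were also lower with HIF-1α/2α, by -2.96, -1.43 and -2.44. SLC16A6 was also lower in the second batch with HIF-1α (-1.30) and HIF-2α/1α (-1.06), and SLC16A4 in HIF-1β KIN (-1.59). SLC16A9 was higher with HIF-2α in the first batch (3.02), in HIF-2α KIN (3.79) and with HIF-1α/2α (3.74). SLC16A5 was higher in HIF-2α KIN (1.13). Of 8 other SLC2A genes 7 were tested in each batch, and 1 was called higher in HIF-2α KIN (4.14% of all genes called), 1 higher and 1 lower with HIF-2α in the second batch (7.58%), and 1 higher and 3 lower with HIF-1α/2α (7.78%). SLC2A14 rose with HIF-2α (1.65) and HIF-1α/2α (1.24) in the second batch, but it shares 16.4% of its 50-base stretches with SLC2A3. SLC2A9, a urate carrier, was lower with HIF-1α/2α (-2.02), as was SLC2A5, the fructose transporter, at 0.0457 CPM against 0.247. SLC2A2 was at 1.30 CPM in HIF-2α KIN against 0.0240 in WT cells and had no read with HIF-2α or HIF-1α/2α in the second batch. Of 8 sodium-coupled SLC5A genes 5 were tested, and 1 was called, higher, in each of HIF-1α of both batches (3.79% and 4.39%), HIF-1α/2α (7.78%) and HIF-2α KIN (4.14%). SLC5A2 (SGLT2) was called higher with HIF-1α in both batches, at 0.787 against 0.207 CPM and 0.427 against 0.135 (overlapping WT in the second), and with HIF-1α/2α at 0.462, and SLC5A10 was detected in HIF-2α KIN at 0.579 CPM with no read in WT cells.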

How the data were processed

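RNA was measured by poly-A RNA-seq in 27 libraries of the first batch and 15 of the second, 3 biological replicates a line. The authors aligned reads to hg38 with STAR and deposited raw counts per gene from HTSeq (union mode, no strand, unique reads, GENCODE v32); the submitters' processing notes name STAR 2.7, SAMtools 1.9 and HTSeq 0.11.1. Batches were fitted separately in R 4.3.3 with edgeR 4.0.16 (TMM, quasi-likelihood test, all lines of a batch in 1 fit), keeping genes whose normalized counts averaged 0.5 or more: 23410 and 28724 of 60609. Batches differ in RNA extraction and library kit. Median depth was 66795104 and 90438640 counts, so counting error matters mainly for SLC2A12. DESeq2 1.42.0, other filters, other scaling, a replicate block and fits without each library were the alternatives. The scripts were tested on simulated data. Same-numbered libraries of the first batch deviated together (mean correlation 0.148, 0.155 and 0.429 for numbers 1, 2 and 3, against -0.121 for different numbers; all 3 pairs over 0.1 in 7 of 13 comparisons, and in 0 of 7 in the second batch). For those 7, blocked values stand beside results they change; for the others, in the closing section. Exon lengths, positions and shared stretches of 50 bases come from GENCODE v44, promoters from RefSeq. All 10 genes are named in every line; genes of other lists are named if called against WT, at most 6 a list. The members and lists were chosen with earlier results of these data known. One result on the other SLC16A genes is not reported here.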

Additional observations from a re-analysis of the deposited data

Results flagged for a closer look

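The effect of the IDR differed between the 2 structured domains, by a test of the interaction in the second batch (edgeR, Benjamini-Hochberg adjustment), for 3 of the 10 genes. For SLC2A10 the interaction was 0.75 on the log2 scale (adjusted p = 7.06e-07): HIF-2α and HIF-2α/1α were at 36.7 and 37.0 CPM, whereas HIF-1α/2α was at 19.8 and HIF-1α at 33.6. For SLC2A3 it was 0.39 (adjusted p = 0.00405), with 52.7 against 25.4 CPM on the structured domain of HIF-2α and 37.3 against 23.5 on that of HIF-1α. For BSG it was 0.27 (adjusted p = 0.00807), with 1367 against 1226 CPM and 1038 against 1119. None reached 2-fold. HIF1A and EPAS1 counts also differed between these lines, each chimera holding only part of each gene, and the part of transgene level was not tested. Other differences between these single lines cannot be told apart from the interaction.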

How the results depend on the processing

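Of 230 changes of the 10 genes, 35 changed sign in 1 or more fits, all of them with an adjusted p of 0.567 or more. Of the 129 with an adjusted p of at most 0.2, a call in any fit or a value given above, 0 reversed. With RLE size factors in place of TMM all 129 kept their side of the call. DESeq2 made 4 more calls, no filter on low counts 3, a filter of 10 on the mean normalized count 1, and the replicate block 3; fitting only the groups compared lost 3 of 106 and gained 1, and leaving out all first-batch libraries numbered 3 lost 2 of 48. Of 912 fits without 1 library, 22 lost a call and 4 gained one. Counts of genes called moved as follows; unless named, the cause was not tested. HIF-1α against HIF-1αDM went from 0 to 1 with DESeq2, without the filter and with the replicate block. HIF-2α KIN against WT went from 0 to 1 with DESeq2, either other filter, only the groups compared and the block. HIF-1α against R30E went from 2 to 1 with only the groups compared, and HIF-1α against WT and HIF-2α against HIF-1α in the first batch from 2 to 1 with only the groups compared and without all libraries numbered 3. Leaving out 1 library at a time gave 0 to 2 called for HIF-1α against R30E and for HIF-1α against WT in each batch, 1 to 2 for HIF-2α against HIF-1α in the first batch, and 0 to 1 for HIF-2α/1α against WT, HIF-2α KIN against WT and the IDR effect.

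The block added calls of SLC2A12 alone: beside that in HIF-2α KIN, HIF-1α against HIF-1αDM (log2 2.73, adjusted p = 0.00255) and against R30E (2.56, adjusted p = 0.00387), where same-numbered libraries did not all correlate over 0.1. It changed no other call at 2-fold. Below 2-fold, where same-numbered libraries of the first batch did not all correlate over 0.1, these also passed an adjusted p of 0.01 with the block: in HIF-1α R30E against WT SLC2A1 (-0.56, adjusted p = 0.00655) and SLC2A3 (-0.63, adjusted p = 0.00262), in HIF-2α against WT SLC16A3 (0.64, adjusted p = 0.00409), and in HIF-1α SLC2A3 against HIF-1αDM (0.61, adjusted p = 0.00538) and SLC16A3 against R30E (0.77, adjusted p = 0.00179). In the second batch SLC2A8 with HIF-2α against WT passed too (-0.25, adjusted p = 5.73e-04), as did BSG (0.16, adjusted p = 0.00201) and SLC2A6 (-0.19, adjusted p = 0.00212) in HIF-2α against HIF-2α/1α, SLC2A6 for the IDR (-0.13, adjusted p = 0.00213), and SLC16A1 (-0.12, adjusted p = 0.00671) and SLC2A8 (0.20, adjusted p = 2.88e-04) for the structured domain. DESeq2 called the same comparisons (2.76, 2.59 and 2.50 in HIF-2α KIN) and HIF-2α against HIF-1α in the first batch (-2.31, adjusted p = 0.00641, against 0.0313 with edgeR). Few reads limit SLC2A12, with 2 to 79 a library.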
